A study of Mus musculus with 4 samples.

Results

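The elastic fibre and fibulin genes described are 10 genes of the mouse: Fbn1, Fbn2, Mfap4, Mfap5, Eln, Efemp1, Efemp2, Fbln5, Fbln1 and Fbln2. They were chosen by name, and their level on an array is the signal of their probe divided by the 75th percentile of all probes on that array. The genes have 13 probes of the 39429 on the array, which carry 31829 gene names in all. Of these 13 probes, 11 were well above background on all 4 arrays, beside 24197 of the 39429 probes in all. If a level over 1 and a signal well above background on all 4 arrays were required, 4 genes with 1 probe each (Fbn1, Efemp2, Fbln5 and Fbln2) would be left. Just inside that threshold, the lowest level of Fbln2 on any array was 2.23, and just outside it the lowest level of Fbln1 was 0.331. How many of all probes would pass it was not computed. Because the genes were chosen with their values known, their levels and ratios are a description and are not tested.

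The study compared mouse embryonic fibroblasts (MEFs) that lack cyclin G2 (G2KO, genotype CycG2-/-), or both cyclin G1 and cyclin G2 (DKO, genotype CycG1-/-CycG2-/-), with wild-type (WT) MEFs. All MEFs had a C57BL/6J background, were untreated and in logarithmic growth, and each of the 4 arrays held total RNA of 1 MEF preparation. The WT array paired with G2KO (CycG2+/+) is called G2WT, and the one paired with DKO (CycG1+/+CycG2+/+) is called DWT. In the Ccng1 allele of the DKO mice, the exons that encode the protein were removed. DKO embryos came from intercrossed heterozygotes, MEFs were taken from midgestation embryos, and no source used here says how many embryos entered a preparation. With 1 array per group, no ratio has a replicate check. The error given for a ratio is that of the scanner software for the spots, which is at least 10.0% of a signal and about 0.20 for a log2 ratio, and it does not cover differences between MEF preparations. Levels are said to differ beyond it when their log2 difference exceeds 1.96 times this error.

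Between 65.0% and 72.2% of probes were well above background on an array. Ccng1, which is deleted in DKO MEFs, had levels of 1.98 on the G2KO-labelled array, 9.45 on G2WT and 1.66 on DWT, and was dim on the DKO array (not well above background), at least 228-fold below DWT. Ccng2 had levels of 0.0910, 0.104, 0.0619 and 0.0806 on the arrays labelled G2KO, G2WT, DKO and DWT, so its probe does not separate the knockout arrays from the WT arrays. Every direction between the G2KO-labelled array and G2WT follows these labels, and for the genes named here that are in the study's own G2KO gene list (Efemp1, Lox, Pdgfra, Cdkn2b and Sox2) it is the opposite of the direction listed there. If both labels were exchanged, those directions would exchange as well. The study describes a dye-swapped design for its G2KO comparison, whereas the arrays here were labelled in a single color. Whether the study's G2KO list came from these arrays is not known here. Of 12 fibroblast marker genes, all were well above background on the arrays labelled G2KO, DKO and DWT, but 9 were on G2WT, where Pdgfra, Fap and Lum were not. In RNA of a whole culture, fewer cells of a type and less RNA per cell cannot be told apart.

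Elastic fibres give stretch to skin, lung and vessel walls. Fibroblasts and smooth muscle cells first lay down microfibrils, built from the long glycoproteins fibrillin-1 and fibrillin-2, and tropoelastin is then deposited on them and cross-linked by lysyl oxidases. Fibulins are secreted, calcium-binding proteins with repeated EGF-like domains that bridge elastin, fibrillins, lysyl oxidases and basement membranes. The short fibulins are fibulin-3 (Efemp1), fibulin-4 (Efemp2) and fibulin-5 (Fbln5), and the long ones described here are fibulin-1 (Fbln1) and fibulin-2 (Fbln2). Fibulin-4 and fibulin-5 are known to be needed for elastic fibre assembly in mice. Embryonic fibroblasts make much of this matrix in culture.

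Promoter sequences of RefSeq on GRCm38.p6, from 250 bases before to 50 bases after a transcript's start, were matched by symbol for 6 of the 10 genes, with 10 promoters in all (Efemp1, Efemp2, Fbln1, Fbln2, Fbln5 and Fbn1). The promoters of 3 genes are shown: Efemp1 and Fbln2, the genes among these 6 with the widest ranges, were highest in DKO MEFs and lowest on G2WT, and Fbn1, the microfibril backbone, was highest on DWT. Each is written 5′ to 3′ on the strand of the gene: Efemp1 on the plus strand at chr11:28852955-28853254, Fbln2 on the plus strand at chr6:91212514-91212813 and Fbn1 on the minus strand at chr2:125506389-125506688. Capitals mark matches, on either strand, to any of 5 motifs. The GC box bound by Sp1 was searched as GGGCGG. The frame of the AP-1 motif was searched as TGANTCA. The box of the TATA-binding protein was searched as TATAAA. The motif of NF-Y was searched as CCAAT. The motif of the TEAD factors was searched as GGAATG.
Efemp1: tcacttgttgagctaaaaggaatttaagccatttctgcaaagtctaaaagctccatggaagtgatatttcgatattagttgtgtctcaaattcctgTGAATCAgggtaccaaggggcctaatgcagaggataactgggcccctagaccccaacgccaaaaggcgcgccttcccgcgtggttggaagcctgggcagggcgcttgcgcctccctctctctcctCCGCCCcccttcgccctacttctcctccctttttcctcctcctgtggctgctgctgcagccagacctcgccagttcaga
Fbln2: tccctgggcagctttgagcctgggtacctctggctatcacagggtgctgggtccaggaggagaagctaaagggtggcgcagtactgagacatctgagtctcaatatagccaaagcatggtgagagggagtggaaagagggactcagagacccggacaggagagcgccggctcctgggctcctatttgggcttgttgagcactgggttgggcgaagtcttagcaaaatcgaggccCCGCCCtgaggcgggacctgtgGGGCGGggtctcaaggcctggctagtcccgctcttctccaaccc
Fbn1: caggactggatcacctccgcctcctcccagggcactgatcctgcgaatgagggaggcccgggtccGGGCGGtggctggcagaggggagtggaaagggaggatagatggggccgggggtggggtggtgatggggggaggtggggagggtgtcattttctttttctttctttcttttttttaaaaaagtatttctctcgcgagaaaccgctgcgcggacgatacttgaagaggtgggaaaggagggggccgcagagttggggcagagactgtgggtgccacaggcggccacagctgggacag
The GC box was found in all 3, and in 8 of the 10 promoters of these genes, beside 35.7% of 32851 promoters of the same length. The 10 promoters are not separate sequences, since they belong to 6 genes and promoters of Efemp2 and of Fbln1 overlap. The AP-1 frame was found in the Efemp1 promoter alone among the 10, beside 7.81% of all promoters, and the NF-Y motif in 1 promoter of Fbln5, beside 37.4%. Neither the TATA box nor the TEAD motif was found in any of the 10, beside 13.6% and 14.7% of all promoters. A match is a description of these letters and not a binding site.

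**Figure D1:**
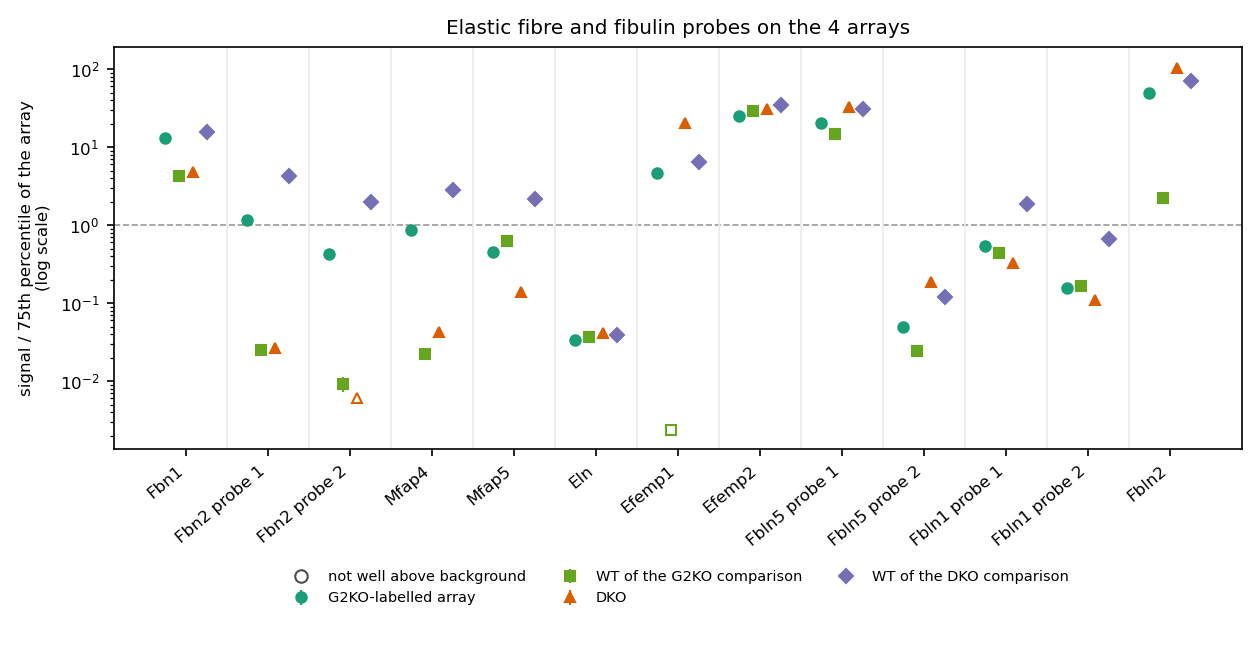
Level of each of the 13 probes on the 4 arrays, as signal divided by the array's 75th percentile on a log axis (dashed line: a level of 1). Bars are the software's spot error, mostly smaller than the symbol, and open symbols are signals not well above background. Efemp1 on G2WT and the second Fbn2 probe on the DKO array are the only open symbols, while the 4 values of Eln lie close to one another, as do the 4 values of Efemp2.

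The fibrillins, which form the backbone of microfibrils, were highest on DWT. Fbn1 (fibrillin-1, the protein altered in Marfan syndrome, probe at 125126727 to 125126786 of chromosome 2 on mm9) had levels of 13.1 on the G2KO-labelled array, 4.25 on G2WT, 4.75 on the DKO array and 15.6 on DWT. The arrays fell into a high pair, DWT and G2KO, and a low pair, DKO and G2WT, and within either pair the levels did not differ beyond the spot error. The ratio was 3.09-fold higher on the G2KO-labelled array than on G2WT (log2 ratio 1.63 ± 0.20, spot error) and 3.28-fold lower in DKO MEFs than on DWT (log2 ratio -1.71 ± 0.20).

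Fbn2 (fibrillin-2, the fibrillin most abundant in embryonic tissue) showed the same order with a far wider range. Its brighter probe had levels of 1.17 on the G2KO-labelled array, 0.0250 on G2WT, 0.0265 on the DKO array and 4.23 on DWT. It was 46.9-fold higher on the G2KO-labelled array than on G2WT (log2 ratio 5.55 ± 0.25) and 160-fold lower in DKO MEFs than on DWT (log2 ratio -7.32 ± 0.24). The low levels, on G2WT and the DKO array, did not differ beyond the spot error. A second probe had levels of 0.426, 0.00924 and 1.97 on the arrays labelled G2KO, G2WT and DWT and was too dim on the DKO array to stand well above background. It gave log2 ratios of 5.53 for the G2KO-labelled array and, as a limit, at least 269-fold lower in DKO MEFs, so both probes gave the same directions.

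The microfibril-associated proteins Mfap4 and Mfap5 differed from each other. Mfap4 (a fibrinogen-domain protein that binds fibrillin and elastin, probe at 61302147 to 61302206 of chromosome 11) had levels of 0.859 on the G2KO-labelled array, 0.0223 on G2WT, 0.0424 on the DKO array and 2.78 on DWT. It was 38.5-fold higher on the G2KO-labelled array than on G2WT (log2 ratio 5.27 ± 0.23) and 65.6-fold lower in DKO MEFs than on DWT (log2 ratio -6.04 ± 0.21). All 4 levels of Mfap4 differed from their neighbours in rank beyond the spot error. Mfap5 (a small glycoprotein of microfibrils, probe at 122478591 to 122478650 of chromosome 6) had levels of 0.451, 0.618, 0.140 and 2.17 in the same order of arrays. It was low on the DKO array and high on DWT, 15.5-fold apart (log2 ratio -3.95 ± 0.20), whereas the G2KO-labelled array lay 1.37-fold below G2WT (log2 ratio -0.45 ± 0.20), a sign that turned without scaling (0.04).

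Eln (tropoelastin, the elastic core, probe at 135179129 to 135179188 of chromosome 5) was dim but well above background on all arrays. Its levels were 0.0338 on the G2KO-labelled array, 0.0371 on G2WT, 0.0417 on the DKO array and 0.0389 on DWT. No neighbouring levels differed beyond the spot error, and the log2 ratios were -0.13 ± 0.23 for the G2KO-labelled array against G2WT and 0.10 ± 0.24 for DKO against DWT. The whole range of Eln over the 4 arrays was 0.30 on the log2 scale, the narrowest among the 10 genes.

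Among the short fibulins, Efemp1 had the widest range of all 10 genes, at least 11.48 on the log2 scale. Efemp1 (fibulin-3, found in basement membranes and loose connective tissue, probe at 28826647 to 28826706 of chromosome 11) had levels of 4.64 on the G2KO-labelled array, 20.5 on the DKO array and 6.43 on DWT, and was not well above background on G2WT. The 3 arrays on which it was measured differed from each other beyond the spot error, with DKO highest. Its excess on the G2KO-labelled array over G2WT was at least 647-fold (log2 ratio at least 9.34), a limit set by the lowest signal well above background on G2WT. In DKO MEFs it was 3.18-fold higher than on DWT (log2 ratio 1.67 ± 0.20). With normexp background correction the first ratio was 6.43 on the log2 scale.

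The other short fibulins, which take part in elastic fibre assembly, were bright everywhere. Efemp2 (fibulin-4, which binds lysyl oxidase, probe at 5481762 to 5481821 of chromosome 19) had levels of 25.2 on the G2KO-labelled array, 28.7 on G2WT, 31.2 on the DKO array and 35.1 on DWT. No neighbours in that order differed beyond the spot error, with log2 ratios of -0.19 ± 0.20 for the G2KO-labelled array (0.03 with quantile normalization and 0.30 without scaling) and -0.17 ± 0.20 for DKO. Its lowest and highest levels did, with a log2 ratio of -0.48 ± 0.20 for the G2KO-labelled array against DWT. Fbln5 (fibulin-5, which tethers elastin to microfibrils and to cells, probe at 102988153 to 102988212 of chromosome 12) had levels of 20.4, 14.6, 32.6 and 30.7 in the same order of arrays. Its DKO and DWT levels did not differ beyond the spot error, and the G2KO-labelled array was 1.40-fold above G2WT (log2 ratio 0.48 ± 0.20). A dimmer second Fbln5 probe had levels of 0.0489, 0.0242, 0.188 and 0.120 and gave larger log2 ratios, 1.01 ± 0.25 for the G2KO-labelled array and 0.65 ± 0.21 for DKO, so the probes of Fbln5 gave the same order of arrays but not the same sizes.

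The long fibulins Fbln1 and Fbln2 had different patterns. Fbln1 (fibulin-1, a matrix and basement membrane protein that binds fibronectin and elastin, probe at 85115998 to 85116057 of chromosome 15) had levels of 0.540 on the G2KO-labelled array, 0.437 on G2WT, 0.331 on the DKO array and 1.84 on DWT. It stood out on DWT, and the arrays labelled G2KO and G2WT did not differ beyond the spot error (log2 ratio 0.31 ± 0.20). DKO MEFs were 5.56-fold below DWT (log2 ratio -2.48 ± 0.20), and the second Fbln1 probe gave -2.58 ± 0.21.

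Fbln2 (fibulin-2, found in embryonic heart, vessel and basement membrane matrix, probe at 91222118 to 91222177 of chromosome 6) had levels of 49.8 on the G2KO-labelled array, 2.23 on G2WT, 102 on the DKO array and 70.0 on DWT. G2WT lay far below the other 3 arrays, and all neighbouring levels differed beyond the spot error. Fbln2 was 22.3-fold higher on the G2KO-labelled array than on G2WT (log2 ratio 4.48 ± 0.20) and 1.45-fold higher in DKO MEFs than on DWT (log2 ratio 0.54 ± 0.20). Efemp1 and Fbln2 thus shared the order DKO, DWT, G2KO and G2WT from high to low, which both Fbln5 probes had too, although DKO and DWT lay within the spot error for the brighter one.

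**Figure D2:**
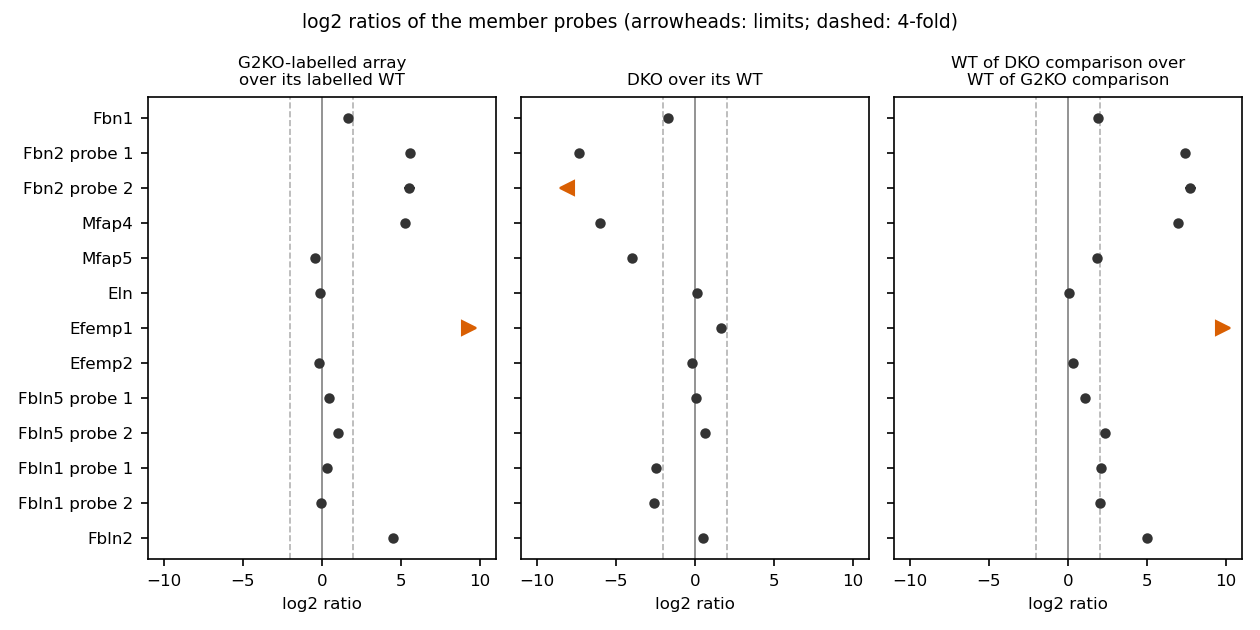
log2 ratio of each probe in the 3 comparisons, with the combined spot error as a bar (mostly smaller than the point) and dashed lines at 4-fold. Arrowheads are limits, where 1 array was not well above background. Efemp1, both Fbn2 probes, Mfap4 and Fbln2 lie past 4-fold on the higher side in the left panel, and no probe does in the middle panel.

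Between the G2KO-labelled array and G2WT, 5 of the 13 probes, for Efemp1, Fbn2 (both probes), Mfap4 and Fbln2, were at least 4-fold higher and 0 at least 4-fold lower. Of the 28278 probes compared on these arrays, 5.5% differed at least 4-fold, 3.58% higher and 1.92% lower. The median log2 ratio of the 13 probes was 1.01, beside -0.16 for all probes compared. With normexp background correction, the log2 ratios of Fbn2 and Mfap4 were 4.05 and 3.95 here, and -5.62 and -5.07 for DKO against DWT. Against DWT in place of G2WT, 3 probes of the G2KO-labelled array were past 4-fold (Mfap5 and the second probes of Fbn2 and Fbln1, all lower). The share and the median over all probes were not computed for this pair, so neither stands beside these values. All 13 log2 ratios were below 0. Those of Fbn1 (-0.25 ± 0.20) and Eln (-0.20 ± 0.24) lay within the range of the spot error, whereas Fbn2 and Mfap4 had -1.85 and -1.69 and Efemp1 and Fbln2 had -0.47 and -0.49.

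Between DKO MEFs and DWT, 0 of the 13 probes were at least 4-fold higher and 6 were at least 4-fold lower, for Fbn2 (both probes), Mfap4, Mfap5 and Fbln1 (both probes). Of the 28389 probes compared, 7.92% differed at least 4-fold, 3.94% higher and 3.98% lower. The median log2 ratio of the 13 probes was -1.71, beside 0.03 for all probes compared, and with 1 probe per gene it was -0.94. Against G2WT in place of DWT, 4 probes were past 4-fold, and the share of all probes was not computed for this pair. Efemp1 was higher by a log2 ratio of at least 11.48, Fbln2 by 5.51 and the second Fbln5 probe by 2.96. Mfap5 had a log2 ratio of -2.14. Fbn2, which was 160-fold below DWT, had a log2 ratio of 0.08 ± 0.28 against G2WT. Compared directly, DKO MEFs and the G2KO-labelled array had log2 ratios of -5.47 for Fbn2, -4.34 for Mfap4 and 2.14 for Efemp1, DKO over G2KO.

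The arrays labelled WT, which share the wild-type genotype by label, also differed from each other in these genes. If the labels of the G2KO-labelled array and G2WT were exchanged, DWT against G2WT would set WT beside G2KO MEFs. The WT pair would then be DWT and the G2KO-labelled array, whose ratios are given above. DWT was at least 4-fold higher than G2WT for 7 of the 13 probes and at least 4-fold lower for 0, beside 7.21% of the 27475 probes compared, 4.56% higher and 2.65% lower. Efemp1 was at least 898-fold higher on DWT, Fbn2 169-fold, Mfap4 124-fold and Fbln2 31.4-fold, and Fbln1 4.21-fold (log2 ratios of at least 9.81, then 7.40, 6.96, 4.97 and 2.07). The second Fbn2 probe (log2 ratio 7.73) and the dim second Fbln5 probe (4.95-fold) complete the 7. The brighter Fbln5 probe was 2.11-fold higher and the second Fbln1 probe 3.97-fold, both under the threshold. Fbn1 had a log2 ratio of 1.88 ± 0.20 and Mfap5 1.81 ± 0.20. All 13 log2 ratios were above 0, but those of Eln (0.07) and Efemp2 (0.29) did not lie beyond the spot error, and that of Eln was below 0 with normexp, quantile or median scaling. The median log2 ratio of the 13 probes was 2.07, beside -0.08 for all probes compared. This comparison shares DWT and G2WT with the other comparisons, so its values are set beside theirs and are no separate evidence.

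**Figure D3:**
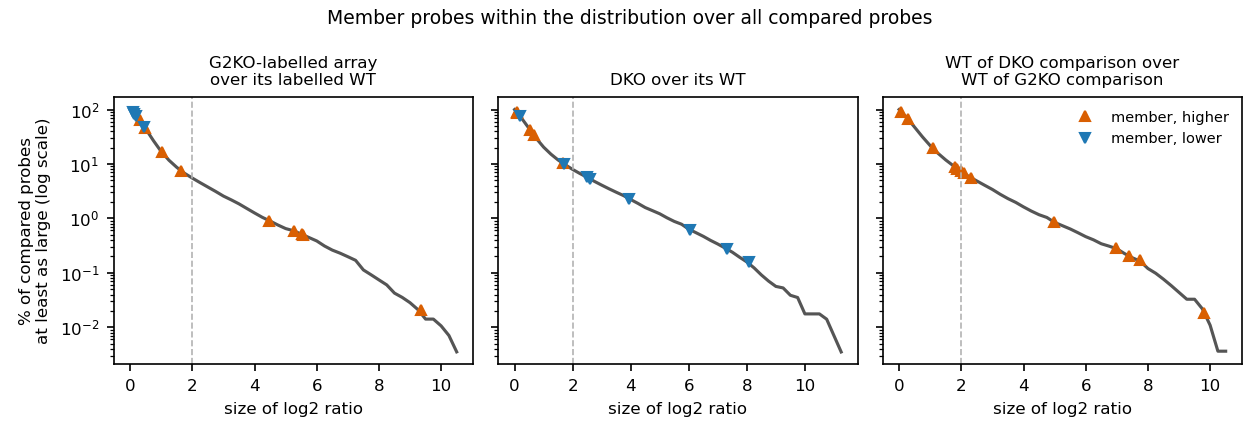
Size of each probe's log2 ratio (x axis) against the percent of all compared probes with a ratio at least as large in either direction (y axis, log scale), with the grey line for all probes and triangles for the 13 probes of these genes. Efemp1 in the left and right panels and the second Fbn2 probe in the middle panel are limits, whose places depend on the floor for dim signals, while Eln and Efemp2 lie near its start in all 3 panels.

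Within the distribution over all probes, the ratio of the brighter Fbn2 probe was matched or passed by 0.495% of probes between the G2KO-labelled array and G2WT and by 0.275% between DKO MEFs and DWT, and that of Mfap4 by 0.594% and 0.623%. Between DKO MEFs and DWT, the ratio of Efemp1 was matched or passed by 10.2%, and its limits against G2WT have no place in this order. At the other end, 77.5% and 77.6% of probes had a ratio at least as large as that of Efemp2, and 84.0% and 86.9% one at least as large as that of Eln.

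Likeness between patterns was measured as the root mean square difference between the log2 levels of 2 genes over the 4 arrays. Dim levels under the array's lowest signal well above background were set to that signal, and each gene was centred on its own mean. Between members, Eln and Efemp2 were closest (0.11), both nearly flat, followed by Efemp2 and Fbln5 (0.39). Fbn2 and Mfap4 followed each other within 0.49 over ranges of at least 6.96, and Fbn1 and Fbln1 within 0.59. Of 24479 other genes, those most like Efemp1, the member with the widest range, were Pdpn (podoplanin, 0.34), Cdkn2b (a cyclin-dependent kinase inhibitor, 0.99), Cdh3 (P-cadherin, 1.02), Ripk3 (a kinase of necroptosis) and Ifi27l1 (1.15). Pdpn had levels of 8.89 on the G2KO-labelled array, 26.5 on the DKO array and 7.64 on DWT and was not well above background on G2WT, which is the order of Efemp1 but for G2KO and DWT. Cdkn2b and Cdh3 were not well above background on G2WT either, so the likeness of all 3 to Efemp1 there rests on the handling of dim signals. Cdkn2b was lower in DKO MEFs than on DWT (log2 ratio -0.65), whereas Efemp1 and the other genes named were higher.

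Other genes of elastic fibres were read from a list of 45, of which 44 had a probe. Between the G2KO-labelled array and G2WT, 12 of 42 compared were at least 4-fold higher and 0 lower, with a median log2 ratio of 0.38. Between DKO MEFs and DWT, 2 of 43 were at least 4-fold higher and 5 lower, with a median of -0.13, and between DWT and G2WT 13 of 42 were higher and 0 lower, with a median of 0.57. These counts use 1 probe per gene and stand beside the shares of all probes given above. In all, 14 genes passed 4-fold in a knockout comparison, and the 10 with the largest ratios are named here.

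Of the microfibril partners, Ltbp2 (a latent TGF-β-binding protein relative that binds fibulin-5) had levels of 30.3 on the G2KO-labelled array, 0.196 on G2WT, 8.05 on the DKO array and 47.3 on DWT. Its log2 ratio was 7.27 for the G2KO-labelled array against G2WT and -2.55 for DKO against DWT. Mfap2 (a small microfibril glycoprotein) had levels of 3.86, 0.197, 0.414 and 5.80 in the same order, with log2 ratios of 4.29 and -3.81. Both were thus high on DWT and G2KO and low on G2WT, as Fbn2 and Mfap4 were.

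Of the fibulin and emilin relatives, Hmcn1 (hemicentin-1, a giant matrix protein once named fibulin-6) was well above background on the arrays labelled G2KO and DWT but not on G2WT or the DKO array. Its log2 ratios were limits, at least 2.76 higher on the G2KO-labelled array, while DKO MEFs lay at or below -4.08. Emilin2 (an elastin-microfibril interface protein) had log2 ratios of 3.26 and -1.96. Lox (lysyl oxidase, which cross-links elastin and collagen) had levels of 9.95 on the G2KO-labelled array, 0.616 on G2WT, 18.7 on the DKO array and 11.8 on DWT. Its log2 ratios were 4.02 for the G2KO-labelled array and 0.66 for DKO, so Lox had the same order of arrays as Efemp1 and Fbln2. Its levels on DWT and the G2KO-labelled array lay close, however, and that step was not set against the spot error.

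Of the enzymes that degrade elastin, Mmp2 (gelatinase A) had log2 ratios of 7.21 for the G2KO-labelled array and -0.96 for DKO. Mmp9 (gelatinase B) had limits of at least 5.27 higher on the G2KO-labelled array and of -3.32 or below in DKO MEFs, since it was not well above background on G2WT or the DKO array. Ctsk (cathepsin K, a collagen- and elastin-degrading protease) had levels of 0.103 on the G2KO-labelled array, 0.0432 on G2WT, 8.35 on the DKO array and 0.0967 on DWT. It was the one with the largest DKO ratio among the 44 genes, 6.43 on the log2 scale. Of the matrix partners, the small proteoglycans Bgn (biglycan) and Dcn (decorin) had log2 ratios of 5.02 and 3.39 for the G2KO-labelled array and of -0.84 and 4.05 for DKO.

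**Figure D4:**
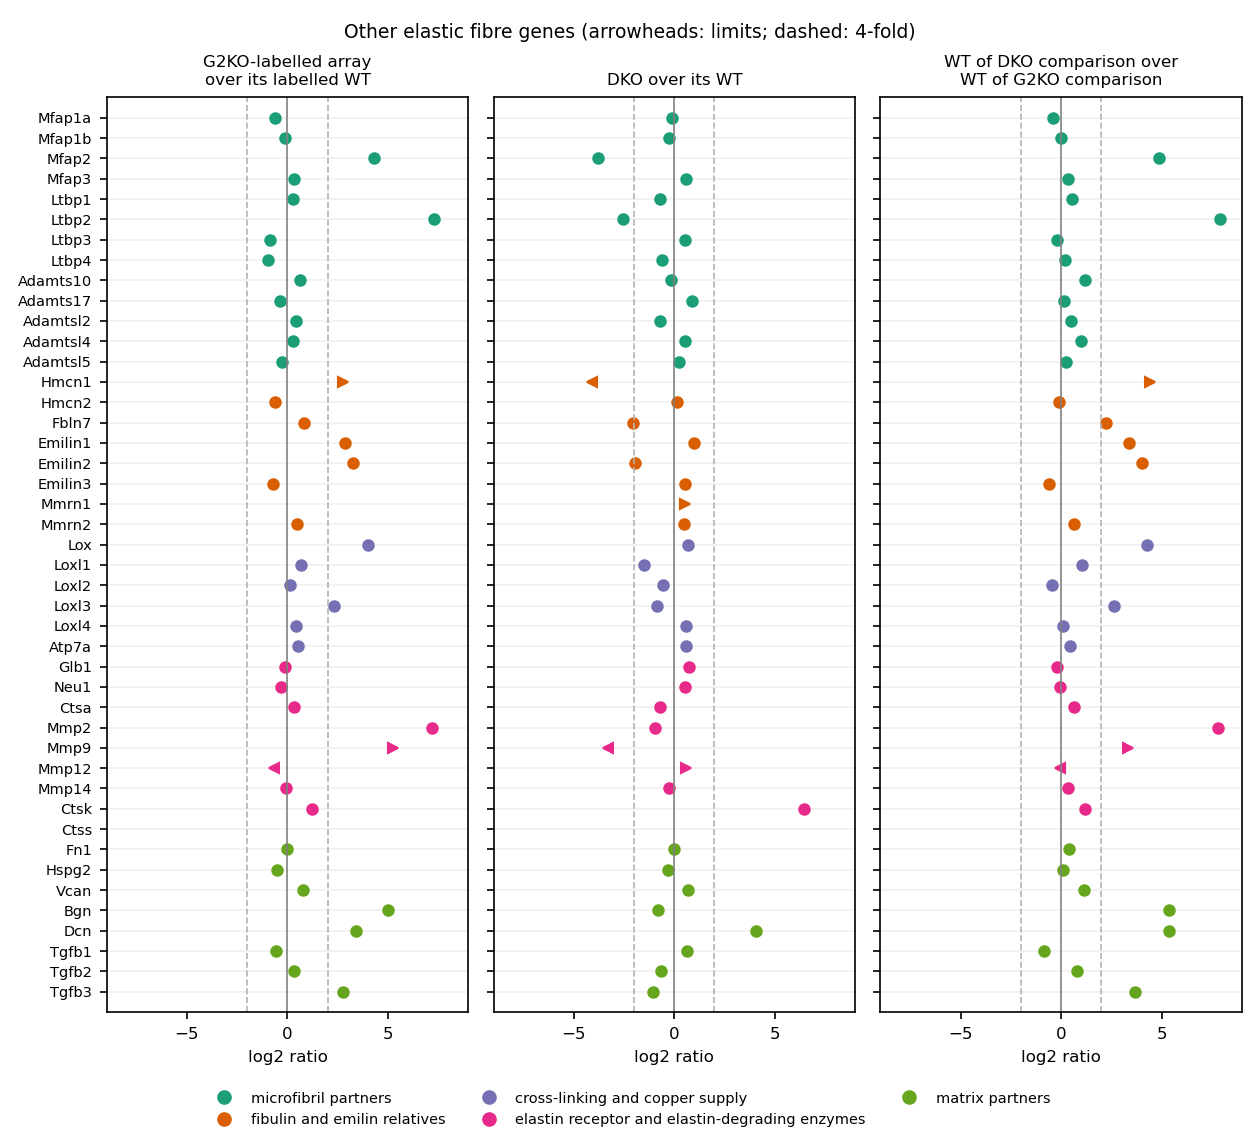
log2 ratios of the 44 other elastic fibre genes in the 3 comparisons, 1 probe per gene, coloured by role, with arrowheads for limits and dashed lines at 4-fold. Genes with no symbol in a panel were not well above background on either array. In the left and right panels the genes past 4-fold all lie on the higher side, 12 and 13 of 42, while in the DKO panel 5 lie on the lower side and Ctsk and Dcn on the higher.

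Markers of cell types differed between the arrays as well. Counts of markers past 4-fold use 1 probe per gene and stand beside the shares of all probes compared. These were 3.58% higher for the G2KO-labelled array against G2WT, and 3.94% higher and 3.98% lower for DKO against DWT. The 12 fibroblast markers had summed levels of 455 on the G2KO-labelled array, 336 on G2WT, 277 on the DKO array and 514 on DWT, and 6 of 12 were at least 4-fold higher on the G2KO-labelled array than on G2WT. Of the 12 log2 ratios there, 10 were above 0, among them S100a4 (0.13), Pdgfrb (0.56) and Col1a2 (0.60). The other 2, Col1a1 (-0.55) and Vim (-0.34), were below 0. Between DKO MEFs and DWT, 5 of 12 were at least 4-fold lower and 0 higher, with a median log2 ratio of -1.33, while Col1a1, Vim and Col1a2 had log2 ratios of -0.03, -0.05 and -0.25. Pdgfra (a receptor of fibroblast progenitors), for example, had a log2 ratio of -7.46 there. The part of fibroblast content in the lower Fbn2, Mfap4, Mfap5 and Fbln1 of DKO MEFs was not tested.

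The 10 mesothelial markers were well above background on the DKO array in all 10 cases and were all at least 4-fold higher there than on DWT. Their summed levels were 1.31 on the G2KO-labelled array, 1.59 on G2WT, 149 on the DKO array and 0.673 on DWT, and Wt1, Upk3b, Upk1b and Lrrn4 were dim on the other 3 arrays. The part of mesothelial cells in the higher Efemp1 and Fbln2 of DKO MEFs was not tested. Of 5 neural progenitor markers, Sox2, Nes and Fabp7 were highest on G2WT, with levels of 2.37, 28.0 and 0.0705, and Sox2 was dim on each of the remaining arrays. Sox1 was lowest on G2WT, at 0.105 beside 0.113 to 0.196, and Pax6 was dim there but not on the G2KO-labelled array. The summed levels of these 5, mostly Nes, were 2.12, 30.5, 1.66 and 1.28, and their part in the low levels of G2WT was not tested.

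The 7 smooth muscle markers had summed levels of 221, 368, 47.9 and 270, with Acta2 (log2 ratio -2.17) and Tagln (-3.50) at least 4-fold lower in DKO MEFs than on DWT. The list was split there, with 3 of 6 log2 ratios above 0: 0.17 for Cnn1, 0.48 for Smtn and at least 1.40 for Myh11. Myh11 was dim on the arrays labelled G2KO and DWT, Des on these and G2WT, and Myocd on the DKO array. The 4 cartilage markers had summed levels of 1.75, 2.54, 0.322 and 7.98, with Col2a1 and Sox9 lower in DKO MEFs by log2 ratios of -7.13 and -2.64, Acan at 0.32, and Matn1 not well above background on any array. Whether either moved with the microfibril genes was not tested. Of 5 endothelial and 5 macrophage markers, none was measured past 4-fold in any of the 3 comparisons, although the ratios of Tek (at least 3.91-fold higher on DWT than on G2WT), Cdh5 (at least 2.86-fold higher on the G2KO-labelled array than on G2WT) and Cd68 (at least 3.00-fold higher in DKO MEFs than on DWT) are limits. Their summed levels ranged from 3.08 to 4.44 and from 0.594 to 0.773. The macrophage marker Aif1 and the endothelial marker Emcn were not well above background on any array.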

How the data were processed

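Cy3-labelled RNA of 4 MEF preparations was measured on Agilent mouse arrays in a single color, 1 array each, on 1 slide. The authors deposited signal intensity values per spot from Agilent Feature Extraction (10.5.1.1 per the labels, 10.7.3.1 per the file headers), already corrected for background and spatial trends and not scaled between arrays. The deposited table of values was identical (largest log2 difference 0).

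From these, log2 intensity was set relative to each array's 75th percentile, control spots and outlier spots (107 to 140 per array) were left out, and spots of a probe were averaged. No spot was saturated. A probe was compared when well above background on at least 1 array. Where the other was dim, its level there was its own signal or, if that was lower, the array's lowest signal well above background (floors at levels of 0.00660, 0.00716, 0.00730 and 0.0102 for G2KO, G2WT, DKO and DWT), and the ratio is a limit. Levels were held not to differ when their log2 difference was under 1.96 times the combined spot error. The files give probe positions on mm9, and all 13 transcripts were found in a reference table of names.

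The member genes, the list of other elastic fibre genes and the marker lists were chosen with earlier results of these data known. Named genes were all members, the other elastic fibre genes past 4-fold in a knockout comparison up to 10 by size, the 5 genes most like the member with the widest range, and Ccng1 and Ccng2. A gene was represented by its brightest probe (mean log2 signal). Ratios were computed with numpy 2.4.6 and pandas 2.3.3 (Python 3.11.15) and tested on simulated data. A limma fit (3.58.1, R 4.3.3) with both WT arrays as a group was an alternative, with 1 residual degree of freedom. Other alternatives were normexp (offset 50), quantile, median and no scaling, the deposited table, outlier spots kept, other filters on dim probes, 2-fold and 10-fold thresholds, 1 probe a gene, and other WT arrays. The number of arrays limits the precision.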

Additional observations from a re-analysis of the deposited data

Results flagged for a closer look

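By the labels, Fbn1, Fbn2 and Mfap4 differed in opposite directions in the knockout comparisons, each beyond the spot error. Fbn1 had log2 ratios of 1.63 for the G2KO-labelled array against G2WT and -1.71 for DKO against DWT. Fbn2 had 5.55 and -7.32, and Mfap4 had 5.27 and -6.04. The difference between the comparisons was not tested, since each side has 1 array, and the first direction rests on the labels of the G2KO-labelled array and G2WT. If both of those labels were exchanged, these genes would be lower in both knockout comparisons and not in opposite directions.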

How the results depend on the processing

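No paired analysis was possible because each group has 1 array. No share over all probes was computed for the counts against another WT array or the mean of both. The counts take no account of direction or of which probe passed. For the G2KO-labelled array, the 5 probes against G2WT were all higher and the 3 against DWT all lower. Only the second Fbn2 probe was in both counts. Of the 13 probes, 5 past 4-fold between the G2KO-labelled array and G2WT became 3 against DWT, 1 against the mean of both WT arrays and 0 at an adjusted p of 0.05 in limma. The 6 of DKO against DWT became 0 in limma, and the 7 of DWT against G2WT became 11 at 2-fold. limma called 0 of 30341 probes for either knockout. At an unadjusted p of 0.05 it called 341 probes for the G2KO-labelled array and 2244 for DKO, among them 0 and 1 of the 13. With 1 residual degree of freedom, its count says nothing on the stability of these ratios.

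The median log2 ratio of the 13 probes for the G2KO-labelled array against G2WT, 1.01, was 0.55 with normexp, 1.51 without scaling and 0.75 with only probes well above background on both arrays. For DKO against DWT, -1.71 became -0.94 with only such probes and also with 1 probe a gene, and for DWT against G2WT 2.07 became 2.32 without scaling. Every other setting moved these counts by at most 1.5 times and these medians by less than the spot error, but the counts compare numbers only, not directions or probes. For DKO, the 4 probes past 4-fold against G2WT were Efemp1, Fbln2 and the second Fbln5 probe, all higher, and Mfap5, lower. Of these, only Mfap5 was also past 4-fold against DWT. Of 180 values of the 30 single-gene ratios under other settings, 145 stayed within the spot error and 35 moved, 7 of them or of the former with a change of sign, all in Mfap5, Eln or Efemp2, whose ratios were under 4-fold there. Normexp lowered the large ratios: Efemp1 6.43 and 6.91 (G2KO-labelled array and DWT, each against G2WT), Fbn2 4.05, -5.62 and 5.87, and Mfap4 3.95, -5.07 and 5.59. Without scaling, Fbn1 passed 4-fold against G2WT on the G2KO-labelled array and on DWT (2.12 in both), and Mfap5 did on DWT (2.05), and with median scaling Fbln1 fell under it there (1.89). Over all probes, normexp left 712, 1192 and 1019 past 4-fold in place of 1555, 2249 and 1981. Without scaling, the higher share of those past 4-fold was 81.0% in place of 65.1% for the G2KO-labelled array, and for DWT against G2WT it was 72.9% in place of 63.3%. Ratios near the background are limits, and 1 array per group limits the rest.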
